A study of Mus musculus with 8 samples.

Results

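The interleukins, their receptors and a few related cytokines were measured in the oviduct of adult mice that had been treated with genistein (Gen) as newborns. Members were chosen by name: every noncontrol probe whose gene name in the scanner files is Il followed by a number, or Lif, Lifr, Osm, Osmr, Csf1, Csf2, Csf3, Csf1r, Tnf, Ifng or Tslp. The rule uses names and no measured value. It gave 91 gene names on 139 probes, of 27962 gene names on 41174 noncontrol probes of the array; Lif itself was not analysed here. By role, 43 of the 91 were ligands, 41 were receptor chains and 6 were antagonists, soluble inhibitors or decoy receptors. The last, Il4i1, is an amino acid oxidase that the name rule brought in. Some names are old ones: Il8ra and Il8rb are the chemokine receptors Cxcr1 and Cxcr2, and Il28 and Il28ra are Ifnl3 and Ifnlr1 of the interferon lambda system.

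Female pups of the outbred CD-1 stock received subcutaneous injections on PND1–PND5, of corn oil in the control group and of Gen at 50 mg/kg/day in corn oil in the Gen group. At an age of 6–8 weeks both groups were given the hormones of superovulation and then mated, so that treatment is shared. Whole oviducts, freed of embryos, were taken 48 hr after the hCG injection (GD2). Each group had 4 independent biological replicates, with 1 array for each. In the paper's PCR methods the 2 oviducts of 1 adult mouse made 1 replicate. Its array methods do not state this, so it was assumed here, and each replicate is called a mouse. RNA of whole oviducts holds epithelium, stroma, muscle and blood-derived cells of all oviduct regions together.

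Interleukins are secreted proteins by which leukocytes, epithelium and stroma signal to one another. Most of their receptors are assembled from a chain that binds 1 ligand and a chain that is shared within a family, such as gp130 (Il6st) for the interleukin-6 family or the common gamma chain (Il2rg) for the lymphocyte growth factors. These shared chains act through Janus kinases and STAT factors, whereas receptors of the interleukin-1 family act through Myd88 and the IRAK kinases. Soluble antagonists and decoy receptors, which bind ligand or receptor without signaling, set the balance. In the reproductive tract these factors are known for roles in ovulation, in embryo implantation, in mucosal defence and in the traffic of leukocytes.

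Results for the receptor genes Lifr and Il17rb turn on what each of several probes reads, so 5 probe sequences of the array design are shown. They are 60 bases each, written 5′ to 3′ in lower case, with positions on the mouse build NCBI 35 (mm7) as listed in the files; no exon or intron annotation of that build was used. Lifr probe 1 lies at chr15:7011508-7012314, a listed span of 807 bases, longer than the probe. Lifr probe 4 lies at chr15:7012421-7012480, probe 3 at chr15:7017869-7017928 and probe 2 at chr15:7017960-7018019. The second Il17rb probe lies at chr14:27435786-27435845.
Lifr probe 1: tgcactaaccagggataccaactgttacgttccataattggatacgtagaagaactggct
Lifr probe 2: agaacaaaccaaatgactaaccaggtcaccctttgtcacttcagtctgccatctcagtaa
Lifr probe 3: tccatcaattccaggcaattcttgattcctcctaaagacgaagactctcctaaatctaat
Lifr probe 4: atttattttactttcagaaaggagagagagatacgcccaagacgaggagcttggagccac
Il17rb probe 2: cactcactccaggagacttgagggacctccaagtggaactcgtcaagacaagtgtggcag

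Signals are fluorescence intensities scaled to a common 75th percentile, and a gene with several probes is represented by its brightest one. Among the 41 receptor chains, 32 were well above background on at least 5 of the 8 arrays, against 19 of the 43 ligands; well above background is the call of the scanner software for each spot. In all, 57 members reached at least 5 arrays, 23 reached 1 to 4 arrays and 11 reached none. The 11 were Il8ra, Il9, Il9r, Il31, Il1a, Il1rapl2, Il20, Il22ra2, Il12b, Il17a and Il5. Control arrays detected 53, 56, 54 and 60 members and Gen arrays 70, 72, 65 and 61, so the groups did not overlap. Detection differed in the same direction over the whole array, with 25391–28949 probes called well above background in controls and 29539–31486 in Gen-treated mice. The 4 control arrays were on slide 1 and the 4 Gen arrays on slide 2, and slide and treatment cannot be told apart. Ovgp1, the gene of the oviduct glycoprotein, and the ciliated-cell factor Foxj1 were well above background on every array (411800–655000 and 39020–67760).

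Differences between Gen-treated mice and controls were mostly within the spread between mice. At an adjusted p under 0.05, 2 of the 91 genes were higher in Gen-treated mice (2.2%, against 2.37% of all gene names tested) and 9 were lower (9.89%, against 14.9%). Of the 9, 7 (Il8ra, Il9, Il9r, Il1a, Il22ra2, Il20 and Il17a) were not well above background on any array. Their signals were 5.98–16.97 on control arrays and 2.90–5.37 on Gen arrays. Of all gene names at that level 64.8% were called lower and 0% higher, and these 7 of 11 (63.6%) are near that share and are not read as levels of the genes. The median signal of probes that no array detected was itself 6.48–11.9 on control arrays and 3.39–6.24 on Gen arrays. Among the 57 members detected on at least 5 arrays, the rest of the calls were the receptor Lifr and the antagonist Il1rn, higher, and the decoy receptor Il13ra2 and the receptor Il17rb, lower. That is 3.51% in each direction, against 2.69% higher and 2.23% lower of all gene names so detected. The median log2 fold change of the 57 genes was 0.06, and that of all gene names so detected was 0.02; 30 of the 57 were higher (52.6%, against 53.6%) and 27 lower (47.4%, against 46.4%). At an unadjusted p under 0.01, 3 were higher and 4 lower (5.26% and 7.02%, against 3.1% and 2.61%). When dim probes were left out of the fit, limma called 0 of 58 members, against 0.685% of all gene names higher and 0.546% lower. At an unadjusted p under 0.05, 9 of those 58 were higher and 9 lower (15.5% each, against 11.4% and 8.35%); an analysis of variance for each probe called 0 after adjustment. At an unadjusted p under 0.01 it gave 2 of the 57 higher (3.51%, against 2.72% of all gene names so detected) and 0 lower (0%, against 3.22%). The share of its adjusted calls over all gene names was not computed. The 4 calls therefore rest on the fit that keeps every probe. They also rest on all 8 arrays: with 1 array left out, Il13ra2 and Il1rn each passed in 2 of the 8 fits, and Lifr and Il17rb in 0. No member was called without Gen replicate 1, 2 or 3. With an intensity trend and a robust fit limma called 3 of the 57 higher and 5 lower, these 4 among them. In whole-tissue RNA, fewer cells of a type and less RNA per cell cannot be told apart.

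**Figure D1:**
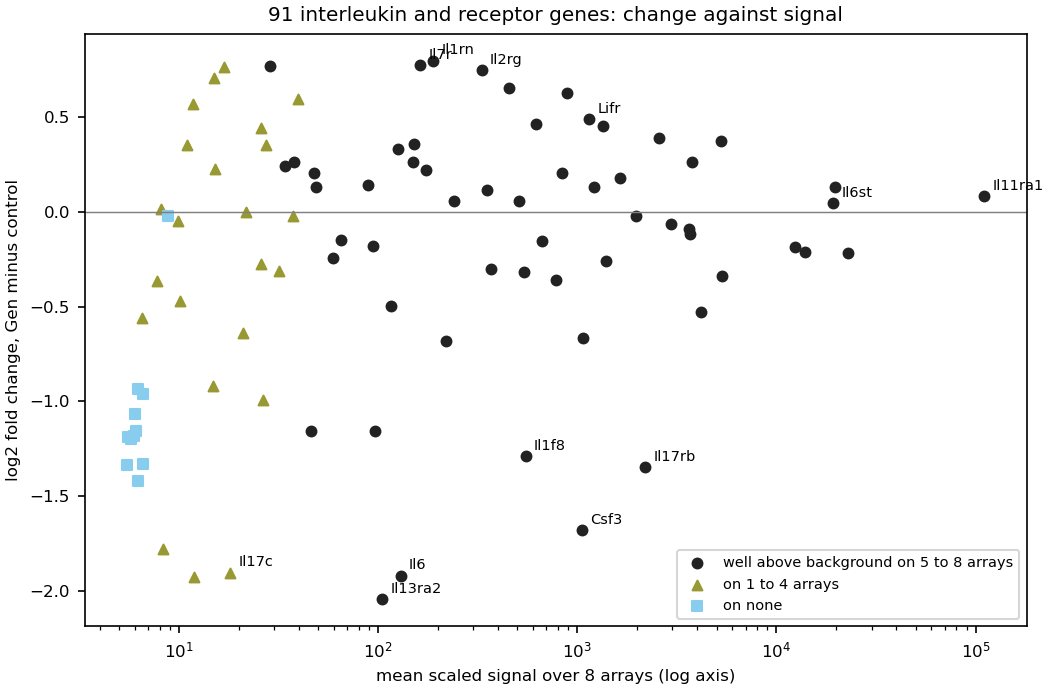
Each point is 1 of the 91 genes, with the mean scaled signal over 8 arrays (log axis) against the log2 fold change (Gen minus control), marked by the number of arrays on which it was well above background. Genes detected on 5 to 8 arrays lie on both sides of 0 (median 0.06), whereas 10 of the 11 genes detected on none lie near -1, the median of all gene names at that level being -1.17.

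The Gen-treated and control mice were fully separated in 9 of the 57 detected members. These were Lifr, Il1rn, Il2rg and Il12rb1 on the higher side (7.02%, against 5.85% of all gene names) and Il13ra2, Il17rb, Il25, Csf3 and Il18bp on the lower side (8.77%, against 6.24%). Such separation gives the smallest p that an exact two-sided permutation test of 4 against 4 mice allows, 0.0286.

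**Figure D2:**
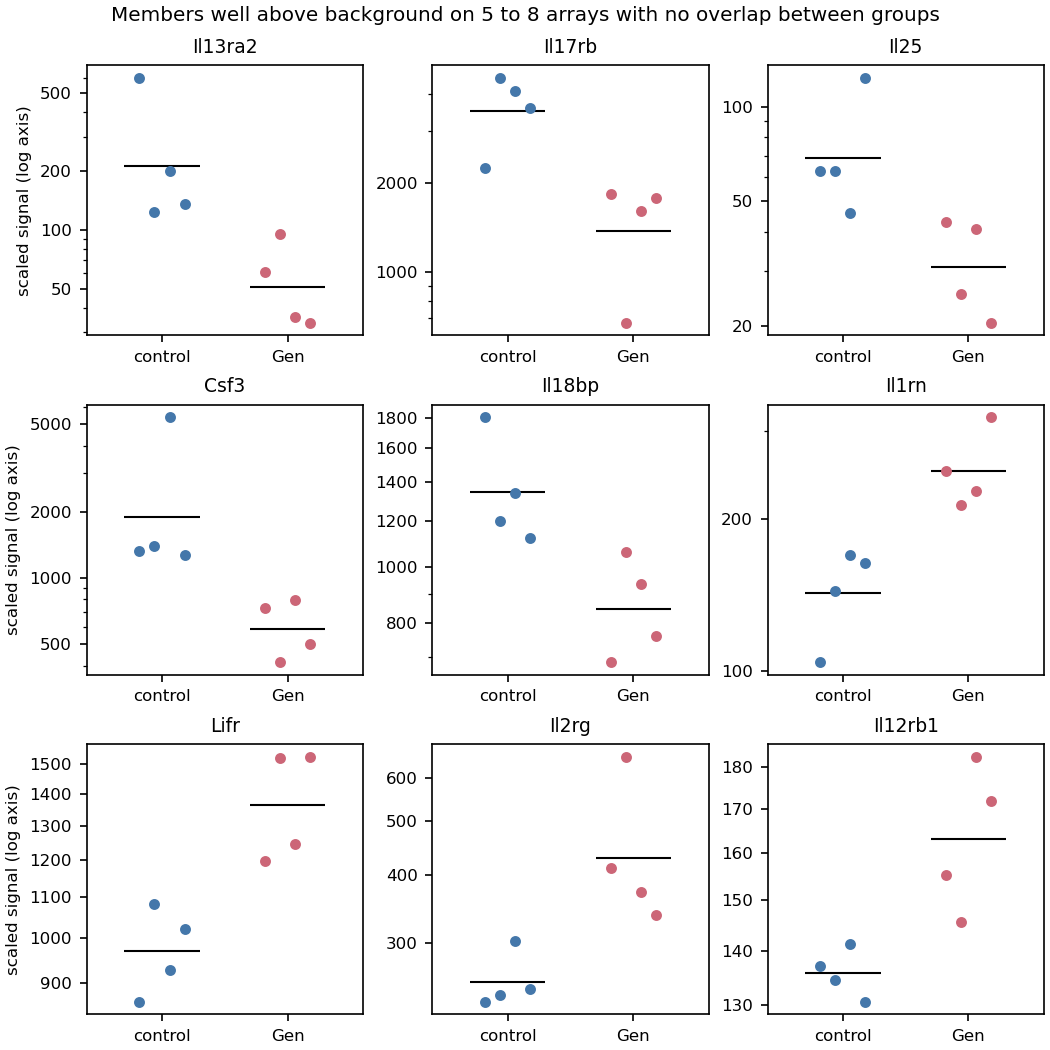
Scaled signal on each array (points, log axis) for the 9 detected members whose groups do not overlap, with black lines at the mean of the log2 signals of each group. Control replicate 1 of Il13ra2 (602), control replicate 3 of Csf3 (5395) and Gen replicate 2 of Il17rb (676) lie apart from the other 3 mice of their group.

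The interleukin-17 family held the largest difference among signaling receptors detected on at least 5 arrays. Il17rb, which encodes the chain that binds interleukin-25, gave 2255, 4541, 4091 and 3591 in controls and 1839, 676, 1615 and 1782 in Gen-treated mice. All 4 Gen-treated mice were below the lowest control, and 1 of them was far below the rest. The geometric mean was 2.55-fold lower (log2 fold change -1.35 ± 0.37 SE, adjusted p = 0.0398). The second Il17rb probe, shown above, gave 318, 780, 685 and 534 in controls against 232, 79.4, 253 and 149, again without overlap. Its log2 fold change was -1.76 ± 0.42 (SE), with an adjusted p of 0.0259. In the limma fit without dim probes the adjusted p was 0.104 for the first probe and 0.0826 for the second. Over the fits that left out 1 array, that of the first probe was between 0.0555 and 0.103. Il25, the ligand of this receptor, was dim. It gave 62.3, 62.7, 45.8 and 124 in controls and 42.9, 25.3, 40.7 and 20.4 in Gen-treated mice, being well above background on 3 arrays of each group. Its groups did not overlap either, and its log2 fold change of -1.16 ± 0.36 (SE) did not pass the test (adjusted p = 0.0662).

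The other receptors of the family were detected on all arrays and none was called by its brightest probe. Il17ra, the chain shared by most ligands of the family, had a log2 fold change of 0.21 ± 0.23 (SE), Il17rd one of -0.36 ± 0.18, Il17re one of -0.18 ± 0.15 and Il17rc one of -0.22 ± 0.12. Il17rc, which pairs with Il17ra for interleukin-17A and interleukin-17F, had 3 probes. Its brightest probe gave 22650–25330 in the control group against 19410–24870 in the Gen group, the second 10160–11660 against 8084–8925. The third gave 195–275 in controls and 311–422 in Gen-treated mice, higher without overlap (log2 fold change 0.64 ± 0.16 SE, adjusted p = 0.0266). In the limma fit without dim probes its adjusted p was 0.0764. The last of these probes was credited to Il17rc by its symbol alone and is listed on the chromosome in the direction opposite to the other probes, which both had lower values. The ligand Il17d gave 5708, 6207, 6148 and 6021 in controls and 4346, 6093, 3736 and 5161 in Gen-treated mice. The groups overlapped, with a log2 fold change of -0.34 ± 0.16 (SE, adjusted p = 0.214). Il17a was not well above background on any array.

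In the interleukin-1 family the antagonist Il1rn rose, and none of the ligands detected on at least 5 arrays passed the test. Il1rn, the antagonist that occupies the interleukin-1 receptor without signaling, gave 104, 144, 170 and 164 in controls and 249, 213, 228 and 319 in Gen-treated mice. Every Gen-treated mouse was above the highest control. The level was 1.74-fold higher (log2 fold change 0.80 ± 0.20 SE, adjusted p = 0.0287), and the adjusted p was 0.0851 without dim probes. Over the fits that left out 1 array it was between 0.0338 and 0.0675. A second Il1rn probe was not well above background on any control array and was so on 3 Gen arrays, and gives no fold. Il18bp, the soluble protein that binds interleukin-18, gave 1807, 1197, 1337 and 1122 in controls and 686, 1060, 935 and 760 in Gen-treated mice. The groups did not overlap, but its brightest probe missed the threshold (log2 fold change -0.66 ± 0.20 SE, adjusted p = 0.0612). Its other probe passed it (-0.72 ± 0.20 SE, adjusted p = 0.0451), but not in the limma fit without dim probes (adjusted p = 0.109). Interleukin-18 itself (Il18) gave 1329–1776 in the control group and 1566–2060 in the Gen group, with a log2 fold change of 0.18 ± 0.15 (SE). Its receptor chain Il18r1 was at 0.45 ± 0.29 (SE, adjusted p = 0.359).

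Il1b gave 136, 279, 2471 and 303 in controls and 304, 490, 378 and 219 in Gen-treated mice. Control replicate 3 was far above all other mice, and the groups overlapped (log2 fold change -0.30 ± 0.81 SE, adjusted p = 0.847). Il1r1, the signaling receptor, gave 2423–3537 against 2388–3622. Its log2 fold change of -0.06 had a 95% interval of -0.47 to 0.35, so that a change of that size cannot be told from none with these 8 arrays. Il1rap, the accessory chain, was at 0.12 ± 0.17 (SE), and Il1rl1, the interleukin-33 receptor, at 0.06 ± 0.17. The decoy receptor Il1r2 gave 33.3, 46.0, 159 and 71.8 in controls and 31.9–76.4 in Gen-treated mice. None of these receptors was called.

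The interleukin-36 genes are an epithelial branch of the same family, and none of them passed the test by its brightest probe. The ligand Il1f8, now called Il36b, gave 344, 1303, 1234 and 995 in controls and 275, 303, 466 and 398 in Gen-treated mice. Control replicate 1 lay among the Gen-treated mice, and the other 3 controls were above all of them (log2 fold change -1.29 ± 0.43 SE, adjusted p = 0.0829). Il1f5, the antagonist Il36rn, gave 93.7, 212, 142 and 151 in controls and 65.7, 33.4, 129 and 61.2 in Gen-treated mice (-1.16 ± 0.41 SE, adjusted p = 0.105). Their receptor Il1rl2 gave 2831, 3001, 1612 and 1893 in controls and 2734–3184 in Gen-treated mice, with overlap (0.39 ± 0.21 SE, adjusted p = 0.279). A second Il1rl2 probe was dim, being well above background on 4 Gen arrays and on 0 control arrays. It gave 14.6–25.3 in controls and 29.7–60.8 in Gen-treated mice, without overlap. That probe passed the limma test (0.98 ± 0.27 SE, adjusted p = 0.0406), but not in the fit without dim probes (adjusted p = 0.104).

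Lifr had the smallest difference of the 4 called members that were detected, and its direction depended on the probe. Lifr is the receptor chain for leukemia inhibitory factor, the cytokine known for its role in implantation. Probe 1 gave 861, 1081, 928 and 1021 in controls and 1196, 1522, 1244 and 1528 in Gen-treated mice, without overlap. The level was 1.41-fold higher (log2 fold change 0.49 ± 0.14 SE, adjusted p = 0.0435), and the adjusted p was 0.100 without dim probes. Over the fits that left out 1 array it was between 0.0589 and 0.106. Probe 2 gave 331, 470, 382 and 455 in controls against 346, 293, 346 and 348. Probe 3 gave 243, 356, 271 and 330 against 245, 225, 270 and 210, and probe 4 gave 71.9, 101, 80.8 and 106 against 81.2, 77.4, 82.3 and 78.7. On these 3 probes the groups overlapped and the values were lower in Gen-treated mice, with log2 fold changes of -0.29, -0.33 and -0.15 and adjusted p-values of 0.248, 0.219 and 0.549. The mean of the 4 probes changed by -0.07 on the log2 scale. The higher value was seen on probe 1 alone, and the cause was not tested.

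**Figure D3:**
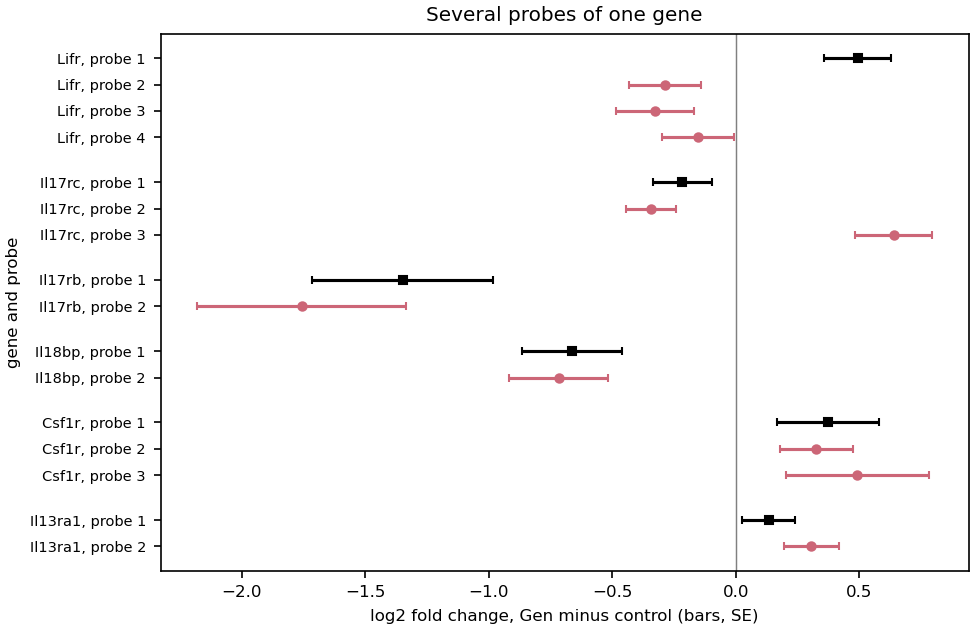
Log2 fold change (Gen minus control) with SE for each probe of 6 genes with several probes, black squares marking the brightest probe; n = 4 mice per group. The probes of Il17rb and Il18bp lie on 1 side of 0, and those of Lifr on both. Of the Il17rc probes, the one above 0 is listed in the direction opposite to the others.

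The rest of the gp130 family did not pass the test. Il6st, the shared signaling chain, was bright in all mice, with 13740, 21920, 21850 and 19660 in controls and 17970, 22800, 21740 and 16650 in Gen-treated mice. Its log2 fold change was 0.05, with a 95% interval of -0.39 to 0.48. Il6 gave 114, 271, 580 and 226 in controls and 93.4, 30.1, 155 and 45.3 in Gen-treated mice. Of the 4 Gen-treated mice 3 were below the lowest control and the other was above it, and the estimate of -1.92 ± 0.62 (SE) did not pass (adjusted p = 0.0777). It was -1.52 without control replicate 3, the mouse with the highest Il6 signal. Il6ra, the ligand-binding chain for interleukin-6, gave 462–671 in controls and 609–1035 in Gen-treated mice (0.47 ± 0.21 SE, adjusted p = 0.188). Osmr, the oncostatin M receptor, gave 2858–3920 against 3237–5049 (0.27 ± 0.18 SE, adjusted p = 0.385), and its ligand Osm was well above background on 1 control array and 3 Gen arrays. Il11ra1, the interleukin-11 receptor, gave 101000–119300 against 90220–147600 (0.09 ± 0.17 SE). A second, also bright Il11ra1 probe had a value below 0, with 25350–31570 against 19350–29120 (-0.32 ± 0.16 SE, adjusted p = 0.240). By the brightest probe, 6 of the 7 receptors of this family had a value above 0 (85.7%, against 53.6% of all gene names so detected). For Il11ra1 and Lifr, which are among the 6, the direction depended on the probe. Only 1, Lifr, was called higher (14.3%, against 2.69%), on a probe that the other Lifr probes did not follow.

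Of the 7 receptors of the common gamma chain family detected on at least 5 arrays, 5 had a value above 0 (71.4%, against 53.6% of all gene names so detected) and 0 were called. Il2rg, the common gamma chain, gave 235, 241, 303 and 248 in controls and 412, 657, 373 and 338 in Gen-treated mice. The groups did not overlap (log2 fold change 0.75 ± 0.22 SE, adjusted p = 0.0512). Il2rb, the beta chain for interleukin-2 and interleukin-15, gave 310, 322, 406 and 428 against 605, 829, 571 and 374, with 1 Gen-treated mouse inside the control range (0.66 ± 0.25 SE, adjusted p = 0.119). Il7r, the interleukin-7 receptor, gave 158, 102, 116 and 129 against 131, 355, 182 and 244 (0.78 ± 0.30 SE, adjusted p = 0.134). The other receptors of the family were Il21r and Il2ra, above 0, and Il4ra (-0.21 ± 0.18 SE) and Il15ra (-0.15 ± 0.25 SE), below it. Of receptors in other families that lymphocytes carry, Il10ra, the ligand-binding chain for interleukin-10, gave 523, 628, 915 and 842 against 939, 1661, 1052 and 886 (0.63 ± 0.26 SE, adjusted p = 0.150). Il12rb1, which serves interleukin-12 and interleukin-23, gave 131–141 in controls and 146–183 in Gen-treated mice, without overlap but with a small difference (0.27 ± 0.11 SE, adjusted p = 0.164). Gen replicate 2 had the highest signal of Il2rg, Il2rb, Il7r, Il10ra and Il21r. Lymphocyte markers were mixed in this mouse. It was the highest for the B-cell gene Ms4a1 (3551, against 220–1516 on the other arrays) and the T-cell gene Cd3d (388, against 116–188). For Klrb1c (466), Gzma (178) and Cd8b1 (1885), markers of T and natural killer cells, it was the lowest array. The plasma-cell gene Igj was highest in Gen replicate 3 (48170, against 29280 in Gen replicate 2).

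Marker lists of leukocytes differed in how they moved. The B-cell and plasma-cell list had 8 of 9 genes well above background on at least 5 arrays, all 8 higher and 4 called higher (50%, against 2.69% of all gene names so detected). Its summed signal was 8463–24200 in controls and 36360–53480 in Gen-treated mice. Without its most abundant gene, Igj, the sum was 2079–3724 against 5017–12610. Of 16 markers of T and natural killer cells, 15 were so detected, 13 of them higher, 1 called higher and 1 called lower (6.67% each, against 2.69% and 2.23%), with sums of 6206–6695 against 6170–7402. The one called lower, Cd8b1, held 25.5–48.1% of that sum, its probe is listed on another chromosome than Cd8a, and without it the sums were 3339–3831 against 3926–5517. For macrophages, 11 of 12 were higher and 3 were called higher (25%), with sums of 72120–102900 against 92150–125600; each marker of these 3 lists was well above background on at least 1 array. Neutrophil markers had 6 of 8 higher and 0 called, eosinophil markers 2 of 4 higher and 0 called, and mast-cell markers 1 of 6 higher. Among these 6 mast-cell markers, Hdc alone was called, and it was lower (16.7%, against 2.23% of all gene names so detected). Hdc held 98.1–99.4% of the summed signal of its list. Without it the sums overlapped, with 1379–4452 in controls and 879.9–2786 in Gen-treated mice. Of the 7 markers of cumulus and granulosa cells, 5 were so detected, 4 of them higher, and Inha was called higher (20%, against 2.69%). Amh and Cyp19a1, also on the list, were well above background on 4 and 3 Gen arrays and on 0 control arrays. Both were higher without overlap, and limma called Cyp19a1 (adjusted p = 0.0236) but not Amh (adjusted p = 0.0547). The sums of the whole list were 993.5–2230 in the control group and 2728–11180 in the Gen group, and 609.1–932.4 and 754.7–1087 without Inha. The part of these cells in the receptor values was not tested. Csf1r, a receptor of macrophages, gave 3523, 4912, 5440 and 4958 in controls and 5008, 8471, 5586 and 5536 in Gen-treated mice (0.37 ± 0.21 SE, adjusted p = 0.292).

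**Figure D4:**
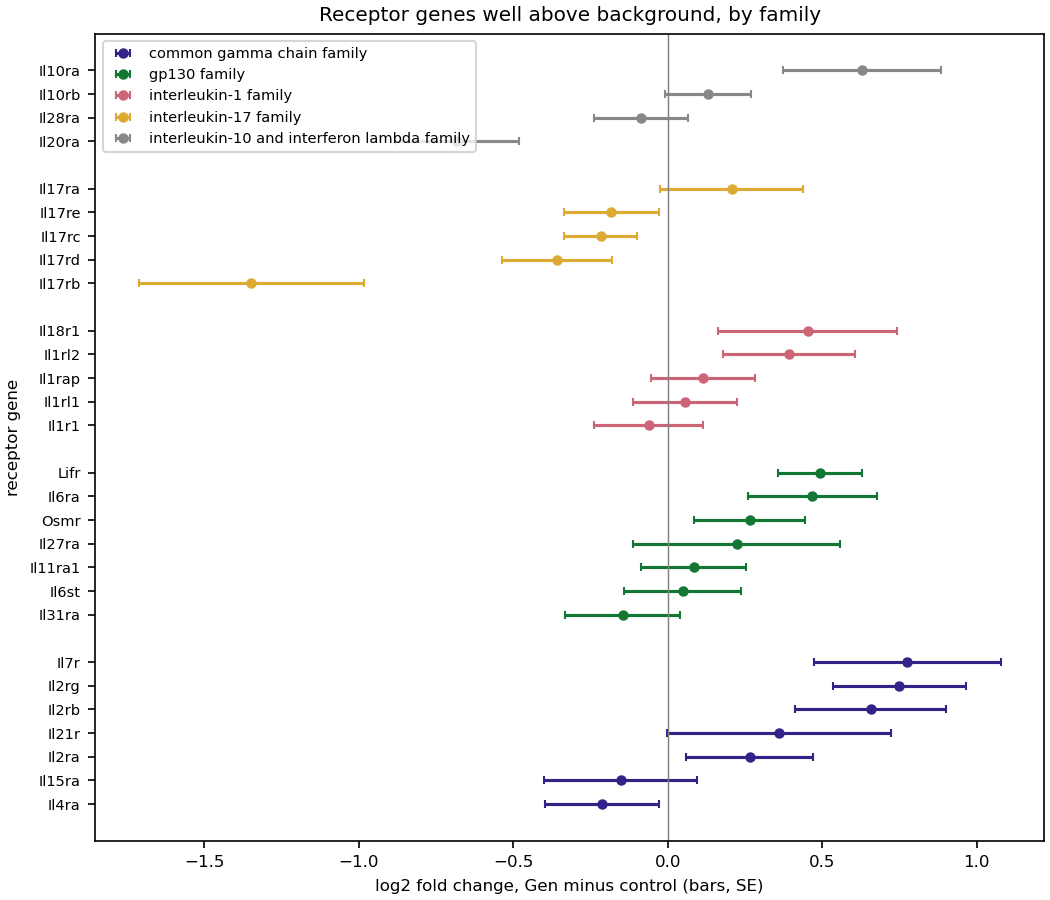
Log2 fold change (Gen minus control) with SE for each receptor gene well above background on at least 5 arrays in 5 families; n = 4 mice per group. Il17rb (-1.35) is the lowest, and Il7r (0.78), Il2rg (0.75) and Il2rb (0.66) are the highest.

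Il13ra2 had the largest difference of any detected member. It encodes a decoy receptor that binds interleukin-13 without signaling through the usual route. Controls gave 602, 124, 200 and 136, and Gen-treated mice gave 61.1, 94.97, 35.9 and 33.5. All 4 Gen-treated mice were below the lowest control, and control replicate 1 was far above the other controls. The geometric mean was 4.12-fold lower (log2 fold change -2.04 ± 0.55 SE, adjusted p = 0.0397). Its adjusted p was 0.105 without dim probes. Over the fits that left out 1 array the log2 fold change was between -2.34 and -1.54, and without control replicate 1 it was -1.54 (adjusted p = 0.0592). The signaling receptor for the same ligand, Il13ra1, gave 1106–1225 in controls and 1147–1390 in Gen-treated mice (0.13 ± 0.11 SE, adjusted p = 0.466), and a second probe of it gave 0.31 ± 0.11 (SE, adjusted p = 0.108), without overlap. The ligand Il13 was dim, with 31.3–70.8 in controls and 37.8–59.3 in Gen-treated mice.

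In the interleukin-10 family, Il20ra, a receptor chain for interleukin-19, interleukin-20 and interleukin-24, gave 293, 259, 310 and 252 in controls and 136, 164, 156 and 256 in Gen-treated mice. Gen replicate 4 lay within the control range and the other 3 were below it (-0.68 ± 0.20 SE, adjusted p = 0.0555). Il10rb, the accessory chain of the interleukin-10 receptor, gave 17160–20550 against 17480–24160 (0.13 ± 0.14 SE). Il28ra, the interferon lambda receptor, gave 3526–4068 against 2697–4120 (-0.09 ± 0.15 SE). Of the 6 ligands, Il24 was well above background on at least 5 arrays and the other 5 were not. Tslp, an epithelial cytokine that acts on dendritic cells, gave 101–204 in controls and 82.4–111 in Gen-treated mice, with overlap (-0.50 ± 0.22 SE, adjusted p = 0.181).

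Csf3, the growth factor of neutrophils, gave 1322, 1406, 5395 and 1270 in controls and 729, 414, 796 and 500 in Gen-treated mice. The groups did not overlap, and control replicate 3 was far above the other controls. The log2 fold change was -1.68 ± 0.49 (SE), which just missed the threshold (adjusted p = 0.0511). It was -1.18 without control replicate 3 and -1.87 without control replicate 4, and passed in these 2 fits (adjusted p = 0.0237 and 0.0490). Csf1, the growth factor of macrophages, gave 2991, 3283, 17180 and 3806 in controls and 2966, 4379, 3492 and 3288 in Gen-treated mice. Its log2 fold change was -0.53 with all mice and 0.06 without control replicate 3.

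Control replicate 3 stood apart in several cytokines at once, which was noticed after the data were seen. In 5 members it was at least 4-fold above every other array: Il1b, Tnf, Il17c, Il1f6 and Csf2. They are 6.25% of the 80 members detected on at least 1 array, against 0.332% of 22272 gene names detected on at least 1 array. Tnf gave 24.2, 52.6, 924 and 42.6 in controls and 86.9, 157, 92.6 and 59.0 in Gen-treated mice. Il17c, an epithelial cytokine, gave 1619 in this mouse and at most 15.5 on any other array. Il1f6, the interleukin-36 alpha ligand, gave 268 against at most 35.4, and Csf2, the granulocyte and macrophage growth factor, gave 153 against at most 16.7. No other array had more than 1 member so far above the rest. The mouse was also highest in Il6 (580) and Il4i1 (4130). It was not the highest in Ifng, the lymphocyte cytokine that activates macrophages, which gave 14.1, 19.1, 20.8 and 62.5 in controls and 30.3, 61.6, 80.9 and 6.20 in Gen-treated mice, being well above background on 1 control array and 3 Gen arrays.

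Without control replicate 3, the log2 fold change was 0.56 for Il1b, 1.29 for Tnf (adjusted p = 0.0708), -0.06 for Il17c, -0.04 for Il1f6 and 0.05 for Csf2, and none of these was called. In the neutrophil markers this mouse had the highest signal for S100a9 (24570, against 336–15360 on the other arrays), S100a8 (2468, against 47.4–2352), Mpo (518), Mmp9 (1216) and Retnlg (722). For the listed genes Camp (130) and Ltf (318300) it lay within the range of the others, and for Ngp (13.1) it was the lowest array. Ela2, also on the list, was not well above background on any array. Ltf gave 228600–450100 over the 8 arrays, against 93.8–618 for Camp, and the source of the Ltf signal was not tested. Without Ltf, which held 91.5–99.2% of the sum, the list summed to 1849–29650 in the control group and 5208–19400 in the Gen group. The macrophage markers of control replicate 3 lay within the range of the other arrays, apart from Cd14 (40570, against 23370–39450). The part of such cells in the cytokine values was not tested.

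**Figure D5:**
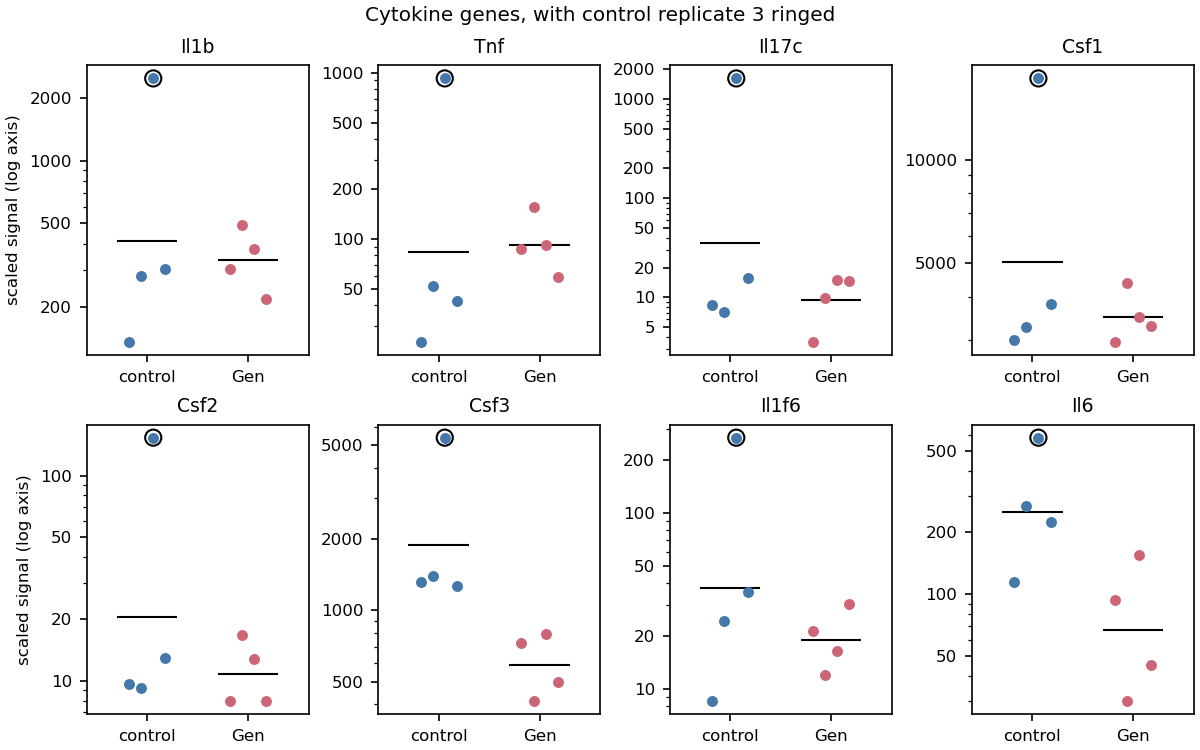
Scaled signal on each array (points, log axis) for 8 cytokine genes, with black lines at the mean of the log2 signals of each group and control replicate 3 ringed. This mouse is the highest of all 8 in each panel, from 153 for Csf2 to 17180 for Csf1, and for Csf2 and Il17c the other 3 controls lie in the range of the Gen-treated mice or close to it.

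The signaling genes behind these receptors were described with a list of 40 genes, all detected on at least 5 arrays. Of these, 1 was called higher and 2 lower (2.5% and 5%, against 2.69% and 2.23% of all gene names so detected). The median log2 fold change was -0.02; 18 were higher (45%, against 53.6%) and 22 lower (55%, against 46.4%). Stat4, the factor that transmits interleukin-12 signals in lymphocytes, gave 60.7, 57.3, 75.2 and 70.3 in controls and 99.98, 170, 102 and 125 in Gen-treated mice (log2 fold change 0.89 ± 0.19 SE, adjusted p = 0.0236). Pycard, the inflammasome adaptor needed to process interleukin-1 beta, gave 18220–23150 in controls and 12160–15590 in Gen-treated mice (-0.54 ± 0.13 SE, adjusted p = 0.0251). Socs7, a feedback inhibitor, gave 70.6–84.1 against 53.1–60.6 (-0.44 ± 0.11 SE, adjusted p = 0.0281). The groups did not overlap for any of these 3, and in the fit without dim probes their adjusted p-values were 0.0662, 0.0699 and 0.0733. With 1 array left out, Stat4 passed in 4 of the 8 fits, Pycard in 2 and Socs7 in 1.

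By step of the pathway, 0 of 4 Janus kinases and 0 of 12 adaptors and kinases of the interleukin-1 and Toll receptors were called. Of 7 STAT factors, 1 was called higher (14.3%, against 2.69% of all gene names so detected). Called lower were 1 of 14 feedback inhibitors (7.14%) and 1 of 3 genes of interleukin-1 processing (33.3%), against 2.23%. Each of these groups has at most 14 genes. In the adaptor group 10 of 12 had a value below 0 (83.3%, against 46.4%). The largest difference was that of Myd88, the adaptor of interleukin-1 receptors, with 10840, 26560, 25610 and 22760 in controls and 10710, 8441, 12670 and 9575 in Gen-treated mice. Control replicate 1 lay among the Gen-treated mice, as it did for Il1f8, and the difference missed the threshold (-0.98 ± 0.30 SE, adjusted p = 0.0604). Stat3, the main factor of the gp130 family, was at 0.11 ± 0.21 (SE), and Stat6, the factor of interleukin-4 and interleukin-13, at 0.18 ± 0.10.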

How the data were processed

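RNA of 8 oviduct samples was hybridized to 1-colour (Cy3) Agilent arrays of the mouse genome. The authors deposited Feature Extraction 9.5 files, with the processed signal given as linear intensity, background-adjusted within each array but not scaled between arrays; their series table repeats those values. The Rosetta Resolver step that followed in the study was not applied.

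Control spots (1639) and outlier spots were dropped, replicate spots were averaged as log2 signals, and arrays were brought to a common 75th percentile. Groups were compared with limma 3.58.1 (lmFit, eBayes) in R 4.3.3, adjusted by Benjamini-Hochberg over 41173 probes and called at an adjusted p under 0.05. Detection on an array was 25391–31486 probes, and only 4 arrays per group limit precision. Current symbols were found through RefSeq (GRCm38.p6), for 114 member probes by accession and for 25 by symbol. Members, lists and tests were chosen with earlier results of these data known.

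Genes were named by a rule over members that every array of a group detected: those called, then those without overlap between groups, with a list of central cytokines and receptors whatever their values, and the called signaling genes. Others were named after their values were seen. Scripts were tested on simulated data; matplotlib 3.10.9 drew the plots. Alternatives changed the normalization (quantile, none, normexp with an offset of 50), the filter on dim probes, a floor at 24.43, outlier spots, the probe summary, the test (trend with robust fit, analysis of variance for each probe, replicate block, unadjusted p under 0.01) and the arrays included. A minimum mean signal of 100 and the account of control replicate 3 were added after the data were seen.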

Additional observations from a re-analysis of the deposited data

Results flagged for a closer look

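Of 50 groups of 4 mice examined for the named genes, 4 held a sample far from the others by Dixon's test, where chance gives about 2.5. Gen replicate 2 was low in Il17rb (675.8, the next 1615; ratio of gap to range on the log2 scale 0.87). Control replicate 3 was high in Csf3 (5395, the next 1406; ratio 0.929), in Csf1 (17180, the next 3806; ratio 0.862) and in Csf2 (152.9, the next 12.86; ratio 0.88).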

How the results depend on the processing

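With all probes, 2 members were called higher and 9 lower, and 1 signaling gene higher and 2 lower. Quantile normalization, no scaling, the filter on dim probes, the floor, the analysis of variance for each probe and the replicate block each gave 0 calls in both sets and both directions. Normexp gave 0 members higher, 1 lower and 0 signaling genes. Same-numbered mice did not deviate together (r from -0.13 to 0.04), and other pairs of a control and a Gen-treated mouse gave r from -0.15 to 0.28. The paper compared Gen-treated mice with control littermates. The sample labels name no litter, so these values cannot decide whether samples are paired, and pairing by litter was not tested. The robust fit with a trend gave 3 members higher and 12 lower, with Csf3, Il2rg and Il18bp now called (adjusted p = 0.0351, 0.0378 and 0.0383 by limma) and Socs7 not (0.119). The mean of probes gave 2 members higher and 12 lower, and an unadjusted p under 0.01 gave 3 and 11. With 1 array left out, 0 to 2 members were higher, 0 to 10 lower, 0 to 1 signaling genes higher and 0 to 2 lower. There were 0 calls without Gen replicate 1, 2 or 3, and 1 member and 1 signaling gene, both lower, without control replicate 1.

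The count of members without overlap was 9, and it was 5 without scaling and 10 to 16 with 1 array left out (16 without control replicate 1, 14 without control replicate 3). The share over all gene names was not computed in these settings. Full separation is easier with fewer arrays for any gene, so the counts with 1 array left out are not read as a result about the members. The median change of the detected members, 0.06, was 0.298 without scaling, where that of all gene names was 0.26. Over the single named genes and these alternatives, 343 values kept direction and side of the threshold, 95 lost the call, 11 gained it and 23 changed sign. Osm was at 0.222 without scaling and 0.017 at the floor, Il1r1 at 0.180 without scaling, Tnf at -0.311 and Ifng at -0.001 after normexp, and Lifr at -0.068 as the mean of its probes. With 1 array left out, the range was -0.457 to 1.294 for Tnf, -0.106 to 0.128 for Il6st, -0.203 to 0.231 for Osm, -0.172 to 0.029 for Il1r1, -0.105 to 1.130 for Ifng, -0.832 to 0.562 for Il1b, -0.777 to 0.064 for Csf1 and -1.304 to 0.049 for Csf2. The cause was not tested. Signal over background limits the ligands most, since 19 of 43 were well above background on at least 5 arrays.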

Other observations

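Some members not described above were well above background on few arrays. Il23r was well above background on 1 array, control replicate 2 (72.7, against at most 14.2 on the others), and Il21 on 1 array, Gen replicate 1 (48.2, against at most 15.9). Il22, a cytokine of mucosal lymphocytes, was detected only in Gen replicate 2 (19.6), and Il3 only in Gen replicate 3 (25.4). Il4, the type 2 lymphocyte cytokine, was detected on 2 Gen arrays (20.2 and 30.0) and on no control array (9.73–17.7). Il17b was detected on all 4 Gen arrays and on no control array (32.6–89.7 against 23.4–48.4), but the groups overlapped and the difference did not pass the test (adjusted p = 0.335 by limma). The chemokine receptor listed as Il8rb gave 168.5 in control replicate 3 and 8.49–45.7 on the other arrays.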
